A study of Mus musculus with 6 samples.

Results

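The 36 genes described here encode the contractile and myofibroblast cytoskeleton: actins, calponin and transgelin proteins, myosin chains, tropomyosins and other thin filament proteins, intermediate filament proteins, cross-linkers and adhesion plaque proteins, and the transcriptional regulators of these genes. They were chosen by gene symbol and role, with earlier results of these data known, and the rule itself used no measured value. All 36 were among the 24062 gene symbols of the deposited count table, and all 36 passed the filter on low counts that left 13990 genes for testing. RNA was sequenced from C57BL/6 mouse embryonic fibroblasts (MEFs), which are connective tissue cells taken from embryos into primary culture. The 3 p27OE libraries came from cells made to overexpress p27 by lentivirus, and the 3 EV control libraries from cells of the EV group, all harvested at day 10. The treatment protocol and the p27OE titles describe the p27OE cells as senescent, whereas the design text of the series describes non-senescent cells. The EV control titles also carry a data set number that the p27OE titles lack. The titles do not explain it, and it cannot be told apart from the group. The labels do not say what the EV control construct held, and they do not say whether the 3 samples of a group were separate cultures or embryos, so p-values measure the spread between these samples, which may be partly technical.

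Contraction of a fibroblast or smooth muscle cell rests on myosin filaments that pull on actin filaments once myosin light chain kinase has phosphorylated the regulatory light chain. Fibroblasts that turn into myofibroblasts add smooth muscle alpha-actin to the cytoplasmic actins and anchor the resulting stress fibres at focal adhesions. Many of these genes are transcribed through serum response factor (SRF), which binds a DNA element called the CArG box together with the actin-sensing cofactors MRTF-A and MRTF-B or, in smooth muscle, with myocardin.

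Library totals ran from 43621464 to 48014367 counts in p27OE and from 39183624 to 61219345 counts in EV control. Levels are given as CPM, the count of a gene relative to library size after scaling by TMM factors, which correct for differences in library composition. The targeted gene Cdkn1b, which encodes p27, was at 167, 232 and 337 CPM in p27OE 1, 2 and 3, against 43.9, 31.5 and 32.3 CPM in EV control 1, 2 and 3. Libraries within a group also differed in transcripts from the Y chromosome. Added together, the CPM of 4 such genes (Uty, Kdm5d, Eif2s3y and Ddx3y) came to 1.95, 57.1 and 137 in p27OE 1, 2 and 3. The sum was 0.125, 126 and 124 in EV control 1, 2 and 3, so each group holds 1 library of low level, the one numbered 1. The X-linked transcript Xist was highest in those libraries, at 330, 164 and 0.457 CPM in p27OE 1, 2 and 3. In EV control 1, 2 and 3 it was at 407, 5.67 and 0.68 CPM. Whether the cells of a group differed in sex was not tested. Log2 fold changes are given as p27OE over EV control with their standard error (SE), and calls were made in edgeR's quasi-likelihood test where the p adjusted over all 13990 genes was under 0.05.

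As a group the contractile genes lay slightly above 0, with few differences larger than the spread between libraries. Their median log2 fold change was 0.17, against 0.01 over all tested genes, and 28 of 36 lay above 0, against 51.8% of all tested genes. Both values rested on single libraries. The median was 0.01 with 19 members above 0 without p27OE 3, and 0.01 with 20 above 0 without EV control 1. It was 0.32 without p27OE 1, 0.25 without EV control 2 and 0.27 without EV control 3, each with 30 above 0. One gene was called, Tagln2, which fell, and 0 rose, where 2.61% of all genes were called, 1.77% higher and 0.843% lower. At an unadjusted p under 0.05 the count was 5 of 36 (edgeR). The share of all genes under that limit was not computed, so the 5 is not read as many or few. DESeq2 called 4, of which 3 were higher (Myh11, Mylk and Myh10, background 8.18%) and 1 lower (Tagln2, background 8.41%). The groups did not overlap for 5 members. Every p27OE library lay above every EV control library for Myh11, Mylk, Myh10 and Cnn3, 4 of 36 where 16.8% of all genes did so, and every p27OE library lay below for Tagln2, 1 of 36 where 16.5% did so. Neither share was above that of all genes. Without both libraries numbered 1, 2 members rose (Myh11 and Mylk, background 7.81%) and 1 fell (Tagln2, background 8.90%). A model with the replicate number as a block had 8 higher and 2 lower, against 9.23% and 8.00% of all genes.

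Most members varied within the groups by more than they differed between them, and they did so together. Tagln2, Mylk, Myh10 and Cnn3 were exceptions, with a group difference larger than the difference between p27OE 1 and p27OE 3 and than that between EV control 1 and the mean of EV control 2 and 3. Counts of all 36 members together made up 4.02%, 4.78% and 5.92% of all counts in p27OE 1, 2 and 3. In EV control 1, 2 and 3 they made up 3.54%, 5.01% and 5.07%. The median member lay at −0.09, 0.13 and 0.54 in the p27OE libraries and at −0.32, 0.16 and 0.17 in the EV control libraries, in log2 units relative to the EV control mean. The highest library of the 6 was p27OE 3 for 28 members, while 26.4% of all genes had their highest value there. The lowest was EV control 1 for 25 members, while 20.7% of all genes had their lowest value there. All 36 members were lower in p27OE 1 than in p27OE 3, and 31 of 36 were lower in EV control 1 than in the mean of EV control 2 and 3.

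**Figure D1:**
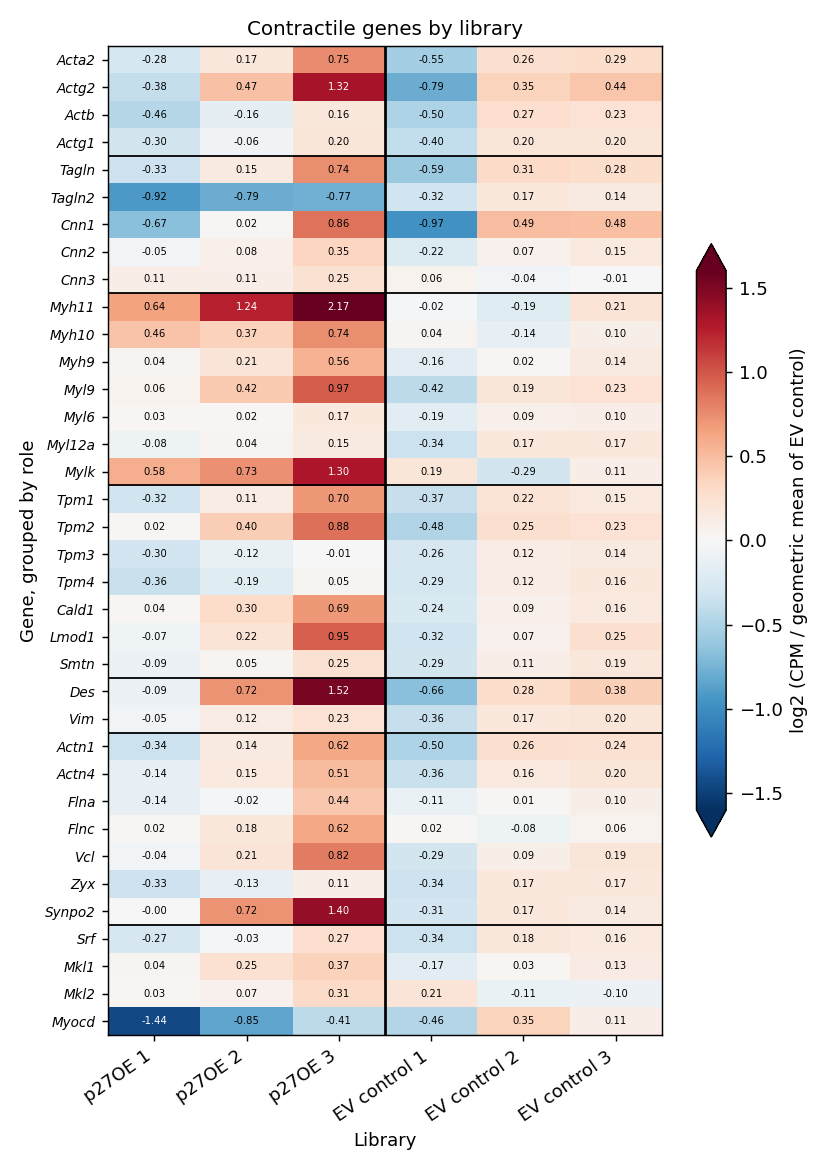
Heat map of the 36 genes (rows, grouped by role) in the 6 libraries (columns). Colour and printed value give log2 of the CPM over the geometric mean of the 3 EV control libraries. The column of p27OE 3 is mostly above 0 and those of EV control 1 and p27OE 1 mostly below, while Tagln2 and Myocd are below 0 in all p27OE libraries.

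When the edgeR model also held each library's Y-linked level, an alternative chosen with earlier results known, 20 members rose and 2 fell in p27OE, against 18.0% higher and 16.0% lower among all genes. The level term itself was called for 30 members, all higher with the level, where 16.4% of all genes were. The members whose level term was not called were Cnn3, Myh10, Myh11, Flnc, Mylk and Mkl2. Y-linked level and library number partly coincide in these 6 libraries, since both libraries numbered 1 were low. They parted at number 2, with 57.1 CPM in p27OE 2 and 126 CPM in EV control 2. Which of them the members follow was not tested. Between the low-level libraries, p27OE 1 minus EV control 1, 29 of 36 members lay above 0 with a median difference of 0.21 log2 units. Between the high-level libraries, p27OE 3 minus the mean of EV control 2 and 3, 28 lay above 0 with a median of 0.38. That comparison rests on p27OE 3 alone, the highest library for most members. It leaves out p27OE 2, which was intermediate in Y-linked level and whose median member, at 0.13, lay below those of EV control 2 and 3. In bulk RNA, fewer cells of a type and less RNA per cell cannot be told apart. Transcripts of dividing cells (Mki67, Top2a and 10 others, summed) also differed between libraries, at 908, 784 and 506 CPM in p27OE 1, 2 and 3, against 1233, 1506 and 1463 CPM in EV control 1, 2 and 3. The part of cell division in the contractile gene values was not tested.

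**Figure D2:**
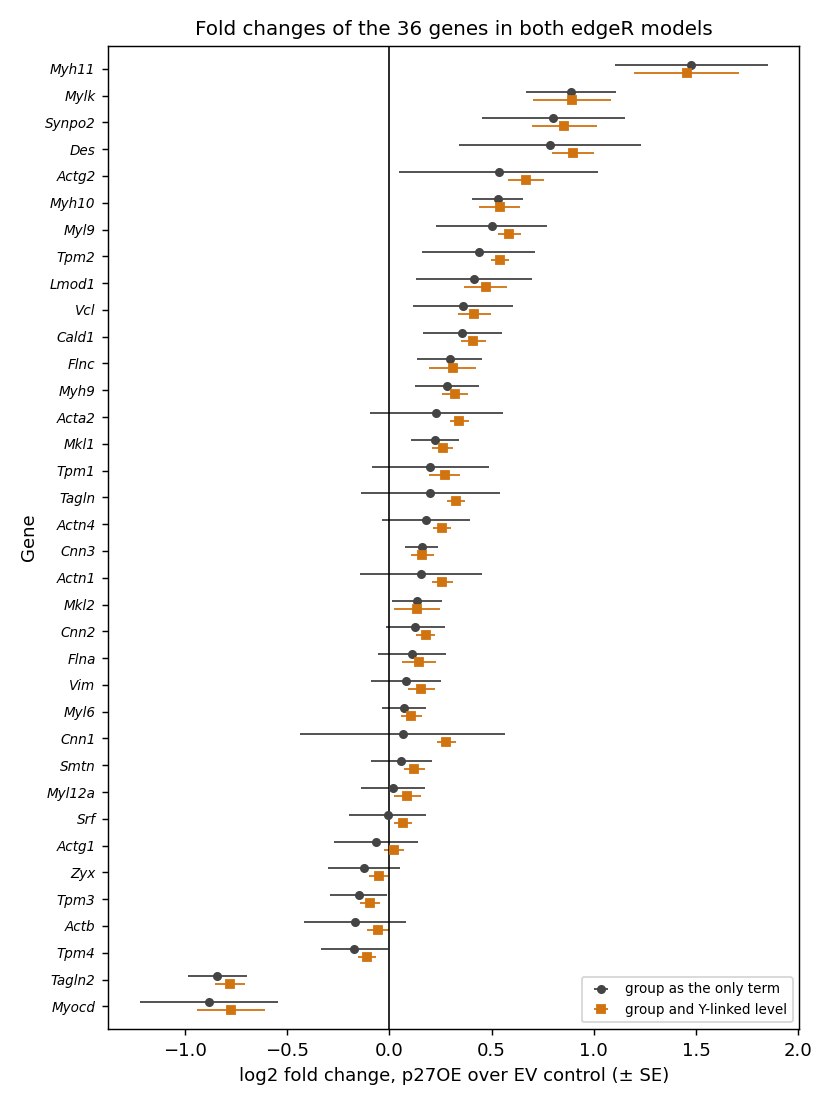
Log2 fold change, p27OE over EV control, of each of the 36 genes with its SE, from edgeR with the group alone (circles) and with Y-linked level added (squares), with 3 libraries per group. The estimates of both models lie close together, and for most genes the SE is smaller with the level term. Myh11 is at the top and Tagln2 and Myocd are at the bottom in both.

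The transcriptional regulators had small or opposite differences. Srf, at chromosome 17, 46548329 to 46556175 (GRCm38), was at 87.5, 104 and 128 CPM in p27OE 1, 2 and 3, against 83.4, 120 and 118 CPM in EV control 1, 2 and 3. The groups overlapped (log2 fold change −0.01 ± 0.19, SE; adjusted p = 0.982 in edgeR). Mkl1, which encodes MRTF-A and is listed as Mrtfa in GENCODE, was at 104, 119 and 131 CPM in p27OE, against 89.8, 103 and 110 CPM in EV control. Its difference of 0.22 ± 0.12 on the log2 scale did not pass (adjusted p = 0.285 in edgeR), and it was called higher in the model that held Y-linked level (0.26 ± 0.05, adjusted p = 0.00986). Mkl2, which encodes MRTF-B, was at 32.9, 33.9 and 39.9 CPM in p27OE, against 37.2, 29.9 and 30.2 CPM in EV control, and passed in neither model (adjusted p = 0.534 and 0.39).

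Myocd, the gene of the smooth muscle cofactor myocardin (chromosome 11, 65176561 to 65269989), went the other way from most contractile genes. It was at 1.17, 1.76 and 2.38 CPM in p27OE 1, 2 and 3, against 2.3, 4.05 and 3.42 CPM in EV control 1, 2 and 3. Its level was low, with 54 to 99 counts in p27OE and 92 to 245 in EV control, and only p27OE 3 reached above the lowest EV control library. The log2 fold change of −0.88 ± 0.34 (SE) did not pass (edgeR adjusted p = 0.167). In the model that held Y-linked level it fell by 0.78 ± 0.17 on the log2 scale (SE, adjusted p = 0.012), and it was also lower within the low-level libraries (−0.95) and the high-level ones (−0.64).

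The CArG box, 2 C, 6 bases of A or T, then 2 G, reads as the same pattern on both strands, and exact matches were searched in the 250 bases upstream of RefSeq transcript starts (GRCm38.p6). Of the 31 members with an entry, 6 held a match (19.4%), against 1.63% of the 26994 genes with an entry. These were Srf, Vcl, Myl9, Myl6, Actg1 and Cnn2. The list was chosen by role and holds Srf and many genes known to be transcribed through it. The higher share is therefore no independent result about them. A gene was counted if any of its listed starts had a match. For Myl6 the match lay within the gene, upstream of 1 of 2 starts, and the other start had 0 matches. No entry was used for Actg2, Myocd, Myh11, Actb and Tagln. A match describes the sequence only, and binding was not measured. The 80 bases around the matches of Srf, Vcl, Myl9 and Myl6 are shown, since these genes stand for the regulator, the adhesion plaque and both kinds of myosin light chain. Each runs 5′ to 3′ on the strand of its gene with the CArG boxes in capitals. The Srf stretch, with 2 matches, is chr17:46556190-46556269 on the minus strand, that of Vcl chr14:20929148-20929227 on the plus strand, that of Myl9 chr2:156775278-156775357 on the plus strand and that of Myl6 chr10:128493010-128493089 on the minus strand.
Srf: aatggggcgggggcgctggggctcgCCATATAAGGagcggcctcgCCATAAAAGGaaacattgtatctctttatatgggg
Vcl: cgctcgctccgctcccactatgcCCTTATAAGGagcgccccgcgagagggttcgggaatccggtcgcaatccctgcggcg
Myl9: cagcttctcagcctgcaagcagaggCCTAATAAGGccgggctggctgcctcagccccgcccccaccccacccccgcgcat
Myl6: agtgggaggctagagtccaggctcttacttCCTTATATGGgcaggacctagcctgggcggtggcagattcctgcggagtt
Within these 4 genes the fold changes ran from −0.01 for Srf to 0.50 for Myl9, and none was called.

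Among the actins, the muscle-type forms were highest in p27OE 3. Of the cytoplasmic forms, Actb was highest in EV control 2. Actg1 was level in p27OE 3 and in EV control 2 and 3 (6149, 6152 and 6151 CPM). Acta2, smooth muscle alpha-actin and the usual marker of myofibroblasts (chromosome 19, 34241090 to 34255590), was at 4284, 5892 and 8802 CPM in p27OE 1, 2 and 3, against 3573, 6248 and 6368 CPM in EV control 1, 2 and 3. The means of 6326 ± 2290 CPM in p27OE and 5396 ± 1580 CPM in EV control (SD, n = 3 each) differed by less than the spread within either group (log2 fold change 0.23 ± 0.33, SE; adjusted p = 0.699 in edgeR). Acta2 rose by 0.34 ± 0.05 once Y-linked level was in the model (adjusted p = 0.00302). Actg2, the enteric smooth muscle gamma-actin, was at 259, 468 and 842 CPM in p27OE, against 195, 430 and 458 CPM in EV control (log2 fold change 0.53 ± 0.49). The cytoplasmic Actb and Actg1 had log2 fold changes of −0.17 ± 0.25 and −0.07 ± 0.21 and passed in neither model. Per kilobase of exon, Acta2 averaged 3108 ± 1125 CPM and Actg1 2670 ± 461 CPM in p27OE, while Acta2 averaged 2652 ± 777 CPM and Actg1 2795 ± 618 CPM in EV control (SD, n = 3). These neighbouring levels lay within each other's spread, and Actb, Vim and Tagln were the next 3 in both groups. The actins are near-identical in their coding sequence and have pseudogenes, so their reads may be split or lost in an unknown way.

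In the calponin and transgelin family, the smooth muscle forms overlapped between groups and Tagln2 fell. Tagln2, which encodes transgelin-2, the form found outside muscle (chromosome 1, 172500047 to 172507380), was at 377, 413 and 419 CPM in p27OE 1, 2 and 3, against 574, 806 and 789 CPM in EV control 1, 2 and 3. Every p27OE library lay below every EV control library, a difference of −0.84 ± 0.15 on the log2 scale (SE; adjusted p = 0.0451 in edgeR). Leaving out EV control 1 kept the call (adjusted p = 0.019), and leaving out any other single library lost it (adjusted p up to 0.215), while the log2 fold change was never above −0.76. Tagln2 differed in the low-level libraries by −0.61 and in the high-level ones by −0.93 log2 units.

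Tagln, or SM22-alpha, an early marker of smooth muscle (chromosome 9, 45929619 to 45936058), was at 2285, 3177 and 4796 CPM in p27OE 1, 2 and 3, against 1900, 3553 and 3480 CPM in EV control 1, 2 and 3. The groups overlapped (log2 fold change 0.20 ± 0.34; edgeR adjusted p = 0.753). Cnn1, smooth muscle calponin (chromosome 9, 22099216 to 22109630), was at 295, 474 and 851 CPM in p27OE, against 239, 658 and 653 CPM in EV control. It overlapped as well (0.06 ± 0.50, adjusted p = 0.951). Once Y-linked level was in the model, Tagln rose by 0.32 ± 0.04 and Cnn1 by 0.28 ± 0.04 (adjusted p = 0.00291 and 0.00463). The signs of Acta2, Tagln and Cnn1 turned negative, without a call, when p27OE 3 or EV control 1 was left out. Cnn2, a calponin also found outside muscle, was at 840, 921 and 1104 CPM in p27OE 1, 2 and 3, against 744, 912 and 968 CPM in EV control 1, 2 and 3. It overlapped (0.13 ± 0.15, edgeR adjusted p = 0.631) and was called higher once Y-linked level was in the model (0.18 ± 0.05, adjusted p = 0.0235). Cnn3, an acidic calponin expressed outside muscle, was at 588 to 647 CPM in p27OE and 528 to 566 CPM in EV control without overlap, a small difference that did not pass (0.16 ± 0.08, adjusted p = 0.272).

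Myosin genes lay furthest above 0 among the roles, although none passed over all genes. All 7 lay above 0, where 51.8% of all tested genes did, with a median log2 fold change of 0.50. Myh11, the smooth muscle myosin heavy chain and a marker of mature smooth muscle (chromosome 16, 14194535 to 14291372), was at 62.1, 94.2 and 179 CPM in p27OE 1, 2 and 3, against 39.3, 34.9 and 46.2 CPM in EV control 1, 2 and 3. Every p27OE library was above every EV control library, with p27OE 3 far above the others. Myh11 was the only member with a change of at least 2-fold, a 2.78-fold difference (1.48 ± 0.38 on the log2 scale, SE), and it did not pass in edgeR (adjusted p = 0.0754). It was called by DESeq2, in the model that held Y-linked level (adjusted p = 0.00638), and without both libraries numbered 1, and its log2 fold change stayed between 0.96 and 1.75 in all alternatives tried. The difference was 0.66 in the low-level libraries and 2.15 in the high-level ones.

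Mylk, myosin light chain kinase (chromosome 16, 34745210 to 35002420), was at 63.8, 70.7 and 105 CPM in p27OE 1, 2 and 3, against 48.7, 34.8 and 45.9 CPM in EV control 1, 2 and 3. The groups did not overlap, but the difference of 0.89 ± 0.22 on the log2 scale did not pass (adjusted p = 0.0719 in edgeR). Myh10, the non-muscle myosin IIB heavy chain (chromosome 11, 68691559 to 68816632), was at 670, 629 and 811 CPM in p27OE, against 500, 442 and 520 CPM in EV control. It too did not overlap (0.53 ± 0.12, adjusted p = 0.0681). Both were called higher once Y-linked level was in the model (adjusted p = 0.0124 for Mylk and 0.00734 for Myh10). Myh9, the non-muscle myosin IIA heavy chain, and Myl9, the regulatory light chain of smooth muscle, had log2 fold changes of 0.28 ± 0.16 and 0.50 ± 0.27 and rose only in that model, and Myl9 also with the replicate number as a block. The light chains Myl6 and Myl12a, shared with non-muscle cells, were at 0.07 ± 0.11 and 0.02 ± 0.16. Exons of Myl12a and its close copy Myl12b overlap by 462 bases, which makes the Myl12a count uncertain. Exons of Mylk, Des, Actn4, Zyx, Tagln and Mkl1 overlap a gene on the other strand by 10 to 333 bases.

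**Figure D3:**
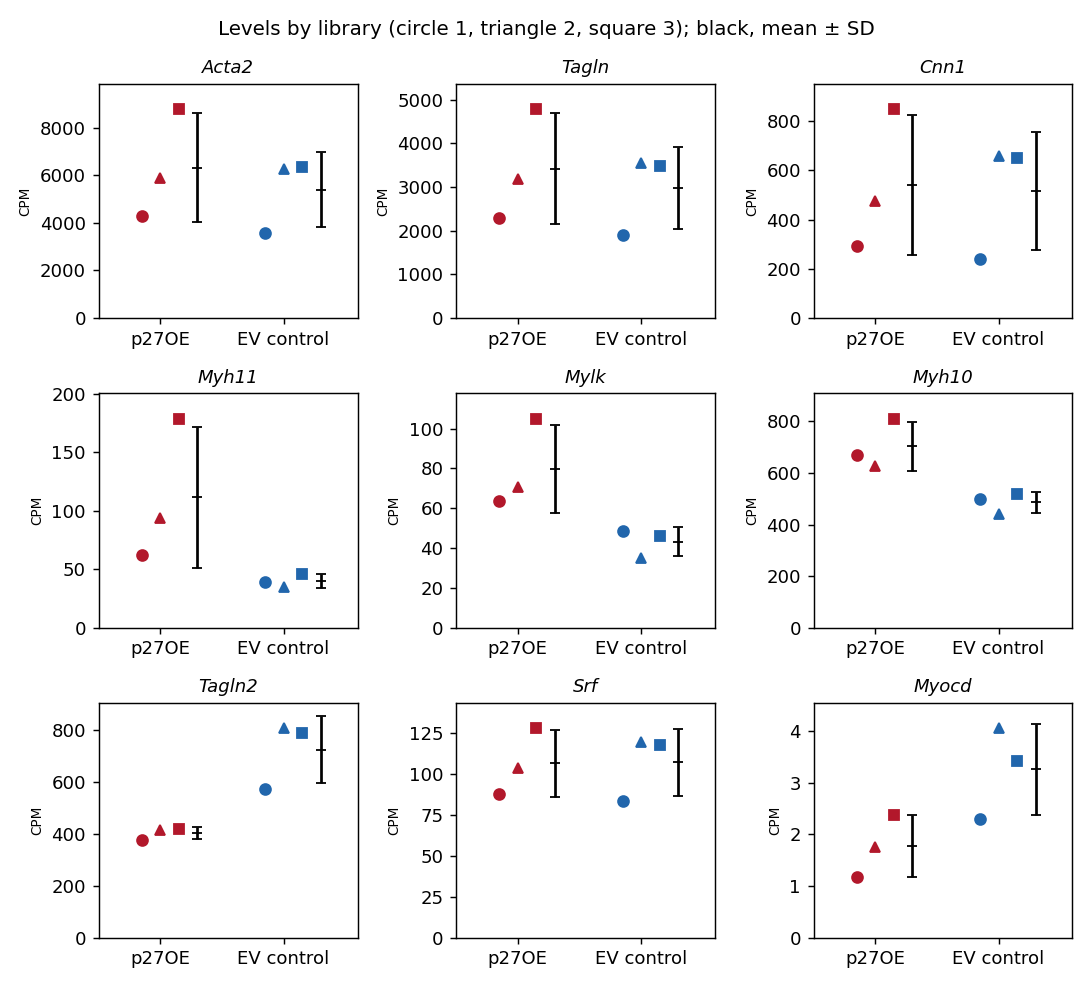
CPM of 9 genes in each library, p27OE left of EV control, with a marker shape for each library number and the mean ± SD in black (n = 3). Myh11, Mylk and Myh10 in p27OE lie above all EV control libraries, Tagln2 lies below, and Acta2, Tagln, Cnn1 and Srf overlap, with the libraries numbered 1 at the bottom of each group.

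Among tropomyosins and other thin filament proteins, 5 of 7 lay above 0 and none was called. Tpm2, the beta-tropomyosin of muscle, was at 904, 1178 and 1644 CPM in p27OE 1, 2 and 3, against 642, 1063 and 1047 CPM in EV control 1, 2 and 3, and overlapped through p27OE 1 (log2 fold change 0.44 ± 0.28). Tpm1 was at 0.20 ± 0.28, whereas Tpm3 and Tpm4, which form cytoplasmic tropomyosins, were at −0.15 ± 0.14 and −0.17 ± 0.16. Caldesmon, which holds actin and myosin apart until signalled, is encoded by Cald1, at 0.36 ± 0.19. The filament nucleator gene Lmod1 was at 0.41 ± 0.28 and Smtn, a marker of contractile smooth muscle, at 0.06 ± 0.15. Tpm1, Tpm2, Cald1 and Lmod1 rose in the model that held Y-linked level, and Tpm3, Tpm4 and Smtn did not pass.

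Of the intermediate filament genes, Des, which encodes the muscle protein desmin, was at 38.9, 68.2 and 119 CPM in p27OE 1, 2 and 3, against 26.2, 50.5 and 54.1 CPM in EV control 1, 2 and 3. Its groups overlapped, and its log2 fold change of 0.79 ± 0.44 did not pass (edgeR adjusted p = 0.318). It was called higher once Y-linked level was in the model (0.90 ± 0.10, adjusted p = 0.00156). Vim, the vimentin gene of mesenchymal cells, averaged 5156 ± 489 CPM in p27OE and 4878 ± 990 CPM in EV control (SD, n = 3), and passed in neither model.

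Cross-linkers and adhesion plaque genes had 6 of 7 members above 0 and 0 called. Synpo2, an actin-bundling protein of muscle Z-discs (chromosome 3, 123076519 to 123236149), was at 8.66, 14.3 and 22.9 CPM in p27OE 1, 2 and 3, against 6.98, 9.77 and 9.53 CPM in EV control 1, 2 and 3. Only p27OE 1 lay within the EV control range, and the difference was 0.80 ± 0.35 on the log2 scale (SE; adjusted p = 0.21 in edgeR). Vcl, which encodes the talin- and actin-binding protein vinculin, was at 0.36 ± 0.24, and its exons overlap those of Ap3m1 on the other strand by 2090 bases. The actin cross-linker genes Actn1, Actn4, Flna and Flnc were at 0.15, 0.18, 0.11 and 0.29. Zyx, zyxin of focal adhesions and stress fibres, was at −0.13 ± 0.18. Synpo2, Vcl, Actn1 and Actn4 rose in the model that held Y-linked level.

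Ratios within a library remove what both genes of a family share. For 10 pairs, a muscle-type form was divided by another form of its family or filament class, per kilobase of exon. These pairs were chosen after the values of the members were seen, and no test was made. The ratio of Acta2 to Actb was 1.33, 1.49 and 1.78 in p27OE 1, 2 and 3, against 1.14, 1.17 and 1.23 in EV control 1, 2 and 3. That of Tpm2 to Tpm4 was 0.67, 0.781 and 0.921 in p27OE, against 0.454, 0.567 and 0.541 in EV control. Myl9 over Myl12a was 1.62 to 2.59 in p27OE and 1.39 to 1.53 in EV control. All p27OE libraries were above all EV control libraries for these 3 pairs and for Flnc over Flna. They were so too for Tagln over Tagln2 and Myh11 over Myh9, in which Tagln2 and Myh11 were already without overlap on their own. The share among other gene pairs was not computed. The groups overlapped for the other 4, among them Cnn1 over Cnn2 (0.342 to 0.752 in p27OE, 0.313 to 0.704 in EV control). Set against Actb alone, 15 of the 35 other members were above in every p27OE library, where 7.16% of all genes were, and 2, Tagln2 and Myocd, were below, where 2.54% were. Actb is itself a member and shared the difference between libraries (p27OE 1 minus p27OE 3, −0.62 log2 units). Dividing by it takes such a difference out of other members and puts it into unrelated genes. The 15 of 35 and the 7.16% are therefore not a like comparison, and no conclusion is drawn from them. A ratio shows unequal change and not which of its genes changed.

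**Figure D4:**
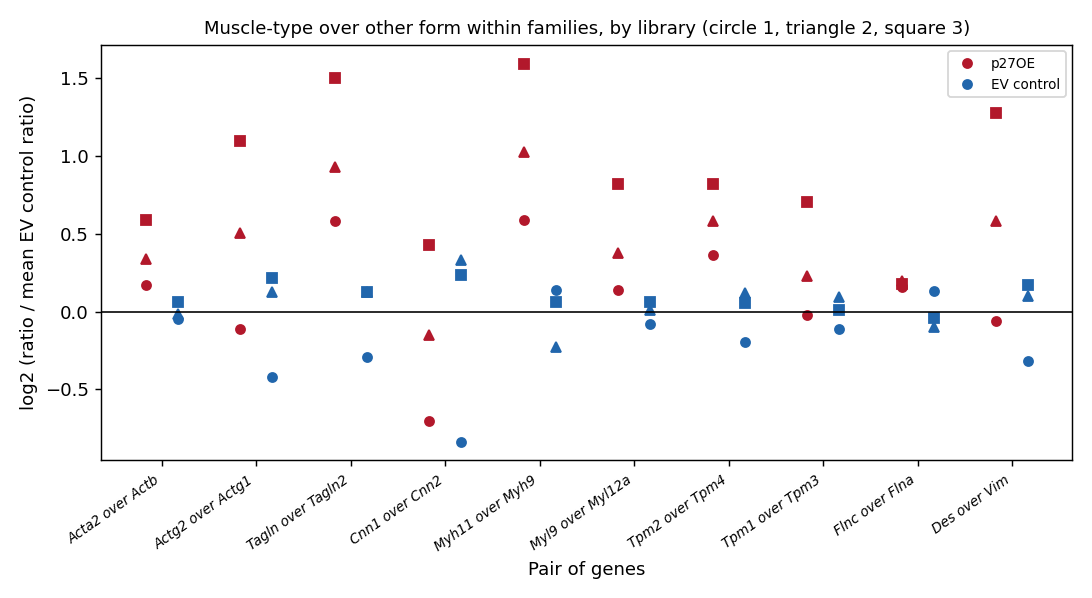
Ratio of a muscle-type gene to another form in its family in each library, as log2 relative to the mean EV control ratio, p27OE left of EV control, with a marker shape for each library number (3 libraries per group). The p27OE libraries lie above all EV control libraries for pairs such as Acta2 over Actb and Tpm2 over Tpm4, and for Cnn1 over Cnn2 the groups overlap widely.

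Other genes of the pathway were read from lists, of which 4 are described. Over all tested genes 51.8% lay above 0, 1.77% were called higher and 0.843% lower. Of 23 tested targets of SRF and its cofactors, 0 were called, with 16 above 0 and a median of 0.15. Csrp2, a LIM protein of smooth muscle, was at −0.36 ± 0.07 (edgeR adjusted p = 0.0522), the actin-binding Lima1 at 0.34 ± 0.11 and Fos at −0.38 ± 0.13. Of 16 tested further smooth muscle genes, all lay above 0 with a median of 0.60, and 0 were called. Cav1, the caveolar coat protein, was at 1018, 842 and 764 CPM in p27OE 1, 2 and 3, against 644, 552 and 591 CPM in EV control 1, 2 and 3 (0.55 ± 0.13, adjusted p = 0.0679), and the integrin chains Itga1 and Itga8 were at 0.82 ± 0.20 and 0.72 ± 0.19.

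Of 21 tested focal adhesion genes, 13 lay above 0 (median 0.04) and 0 were called. The adaptor gene Nck2 was at 0.25 ± 0.07, Palld, which bundles stress fibre actin, at 0.62 ± 0.21 and the tensin gene Tns1 at 0.40 ± 0.14. Of 17 myofibroblast genes, chiefly matrix and its regulators, 10 lay above 0 (median 0.03) and 1 fell, where 0.843% of all genes fell. That gene was Cthrc1, a secreted protein of activated fibroblasts, at 146, 176 and 165 CPM in p27OE 1, 2 and 3, against 266, 263 and 250 CPM in EV control 1, 2 and 3 (−0.68 ± 0.09, edgeR adjusted p = 0.0303). Its groups did not overlap. Fn1, fibronectin, was at 0.60 ± 0.20 and Lrrc15, a marker of matrix-producing myofibroblasts, at −1.22 ± 0.49 without passing. In the model that held Y-linked level, in which 18.0% of all genes were higher and 16.0% lower, 10 of the 16 further smooth muscle genes rose and 0 fell. Of the 23 targets of SRF and its cofactors 12 rose and 4 fell, of the 21 focal adhesion genes 6 rose and 1 fell, and of the 17 myofibroblast genes 2 rose and 7 fell.

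Markers of the labelled cell type were present in all libraries. The 10 fibroblast markers summed to 29909 to 36261 CPM in p27OE and 33245 to 50085 CPM in EV control, with 0 called, and collagen genes made up most of the sum. In the model that held Y-linked level 5 of the 10 fell and 0 rose, where 16.0% of all genes fell and 18.0% rose. The matrix proteoglycan gene Dcn was at 92.7, 25.2 and 8.43 CPM in p27OE 1, 2 and 3, against 76.1, 11.2 and 8.27 CPM in EV control 1, 2 and 3. Lum, of the same proteoglycan family, was at 85.4, 24.8 and 4.18 CPM in p27OE, against 77.6, 10.2 and 8.71 CPM in EV control. Both were thus highest in the library numbered 1 of each group, where most contractile genes were low. So were the markers Col1a1, Col1a2, Col3a1, Pdgfra, Pdgfrb and Mfap5, whereas Thy1 and Fbln2 were lowest there. The part of these markers in the contractile gene values was not tested. The 8 pericyte and vascular smooth muscle markers summed to 425 to 537 CPM in p27OE and 281 to 343 CPM in EV control. The largest part came from the proteoglycan gene Cspg4, at 229 to 289 CPM in p27OE and 141 to 165 CPM in EV control. Of the 7 tested, 6 lay above 0, against 51.8% of all tested genes, and Mcam was at −0.04 ± 0.42. The regulator of G protein signalling Rgs5 and Cspg4 rose (1.53 ± 0.18 and 0.70 ± 0.12), where 1.77% of all genes did. The pericyte marker Higd1b was at 0 in 4 of 6 libraries. The part of these cells in the values of Myh11, Mylk and the other members was not tested. The skeletal muscle markers summed to 43.8 to 196 CPM in p27OE and 16.8 to 76.3 CPM in EV control, nearly all of it from Acta1, an actin close in sequence to Acta2. The skeletal muscle genes Myf5 and Ckm were at 0 in all libraries, and the cardiac markers summed to 3.12 to 4.18 CPM in p27OE and 2.91 to 3.01 CPM in EV control. Macrophage markers summed to 21.1 to 38.3 CPM in p27OE, and to 105 CPM in EV control 1 and 20.0 and 25.5 CPM in the other EV control libraries.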

How the data were processed

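The deposited table gives whole-number read counts per gene symbol for 6 libraries, with no normalisation by the authors. The submitters' processing notes name genome mm10, Subread, featureCounts 1.4.6, Bowtie2 2.2.6 and TopHat2 2.0.14. Neither annotation nor strand setting is given in the sources used here, so reads of overlapping or antisense genes cannot be assigned with certainty. The filterByExpr filter kept 99.98% of counts. TMM-scaled counts were tested with edgeR 4.0.16 under R 4.3.3 (quasi-likelihood, robust, two-sided, group alone), and p-values were adjusted over all tested genes by the Benjamini-Hochberg method. The SE is the log2 fold change over the square root of F. Differences between single libraries use log2 CPM with a prior count of 2. Exon lengths and coordinates are from GENCODE M21 (GRCm38, the assembly of mm10), and Mkl1 and Mkl2 were matched through RefSeq synonyms. The procedure was also run on counts simulated for each gene on its own. Those counts held no differences shared between genes within a library, so they do not show how the procedure handles such differences. Alternatives were 3 other scalings, 2 other filters, DESeq2 1.42.0, limma-voom (limma 3.58.1), the replicate number as a block, Y-linked level in the model (summed CPM of 4 genes over that of the highest library), omission of both libraries numbered 1, and omission of each library. The members and lists were chosen with earlier results of these data known. All members are described, with every library's value for 8 genes chosen by name, any called gene and the 6 largest changes. Of the 5 pathway lists, 1 is not reported here. The others are represented by their called genes and the 3 with the smallest p.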

Additional observations from a re-analysis of the deposited data

How the results depend on the processing

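Other scalings, filters and limma-voom left 1 member called, Tagln2, with 27 or 28 of 36 above 0, and no member changed sign with a call. The count over all genes, 365, became 2321 with DESeq2, 2410 with the replicate number as a block, 4761 once Y-linked level was in the model and 2334 without both libraries numbered 1. Over the fits that leave out 1 library each it ran from 1 to 1827. The count of called members, 1, became 4, 10, 22 and 3 in the same order, with a range of 0 to 1 when each library was left out. The count of called genes of the 5 pathway lists, 1, became 13, 22, 52 and 13 in that order, 2 with the stricter filter (1 CPM in 3 libraries), with a range of 0 to 7 when each library was left out. The cause was not tested beyond these settings. The median member ran from 0.01 (without p27OE 3 or EV control 1) to 0.32, and the members above 0 from 19 to 30.

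Signs changed, without a call, for Myl12a with no filter (−0.0053), for Actg1 (0.023) and Srf (0.066) in the model that held Y-linked level, and without both libraries numbered 1 for Cnn1 (−0.0045), Myl6 (−0.011), Myl12a (−0.10), Vim (−0.028) and Smtn (−0.015). Over the leave-one-out fits the log2 fold change ran from −0.086 to 0.43 for Acta2, −0.13 to 0.40 for Tagln, −0.43 to 0.34 for Cnn1, −0.26 to 0.030 for Actg1, −0.18 to 0.094 for Srf, −0.15 to 0.10 for Myl12a, −0.032 to 0.12 for Myl6, −0.11 to 0.39 for Tpm1, −0.081 to 0.20 for Flna, −0.089 to 0.15 for Smtn, −0.12 to 0.34 for Actn1, −0.0087 to 0.30 for Actn4 and −0.096 to 0.18 for Vim. Under the replicate block Tagln2 and Myocd fell and Myl9, Tpm2, Myh10, Myh11, Cald1, Des, Synpo2 and Mylk rose. Deviations from the group mean correlated across genes at 0.67, 0.04 and 0.50 for numbers 1, 2 and 3, and at 0.56 for p27OE 3 with EV control 2. The block was therefore not treated as a pairing of samples. Counts were lowest for Myocd and Synpo2, with fewer than 1000 in all libraries, and the part of depth in the calls was not tested.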
